A study of Mus musculus with 21 samples.

Results

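PSME3 is a nuclear proteasome activator that was mapped on the chromatin of C2C12 cells, a mouse myoblast line, by CUT&RUN, in which an antibody guides a nuclease to release the DNA around a protein. The regions described here are the pooled cycling PSME3 peaks that shared no base with any peak of the pooled cycling list for H3K4me3, the histone mark of active promoters. They numbered 371 of 5812 peaks, or 6.38%. The other 5441 peaks carried the mark. The members were chosen by their position relative to H3K4me3 peaks, so their lack of the mark in the pooled list is a description and not a result.

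Of the 21 libraries, 14 had a peak list used here, 1 for each antibody in 3 cycling replicates and in 4 day 2 preparations, and the 7 IgG libraries were not analysed here. Cycling C2C12 cells grew in 20% FBS and were frozen unfixed in 10% DMSO in FBS before the assay. Day 2 cells had spent 48 h in 2% horse serum and were assayed fresh or frozen, each either native or crosslinked in 0.1% formaldehyde that was quenched with 12.5 mM glycine. The cycling replicates were biological replicates by the study's account, whereas each day 2 preparation was 1 library per antibody and has no replicate check. The authors called the peaks with MACS2, and each pooled PSME3 and H3K4me3 peak had a q-value under 0.1, the q-value being a p-value corrected for multiple testing. Fold enrichment is the authors' ratio of signal to the local background and was compared within a list only, so values from different lists are set side by side as a description. Read numbers are not in the lists. The depth is therefore unknown and a site absent from a list may lie under its threshold. H3K4me3 replicate 2 stood apart, with 40999 peaks of median width 662 bp against 18077 of 1781 bp in replicate 1 and 19365 of 1784 bp in replicate 3. As a check of the cell type, the genes of the muscle regulators Myod1 and Myf5 carried an H3K4me3 peak in 7 of 7 H3K4me3 lists.

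H3K4me3 is laid down around the starts of transcribed genes, most strongly over promoters rich in CG dinucleotides. PSME3 caps the proteasome core in the nucleus and is known for degradation of proteins without ubiquitin. In CUT&RUN, the nuclease can also release DNA at accessible or highly repeated sequence without the antibody's target, which IgG libraries are made to measure.

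Few of the members lay at a promoter. In a promoter table of RefSeq for GRCm38.p6, in which each window held 250 bases before and 50 after a gene start, 8 of 361 members on the chromosomes of the table shared a base with a window, or 2.22% (exact Clopper-Pearson 95% interval 0.961 to 4.32%). Among all PSME3 peaks on these chromosomes, the share was 45.4%. The table is not complete. The nearest protein-coding gene had no entry in it for 79 of the 361 members (21.9%) and for 906 of the 5296 other peaks (17.1%), and over the peaks whose nearest protein-coding gene had one the shares were 7 of 282 members (2.48%, 1.00 to 5.05%) and 57.4% of the others. The 8 members met 9 windows, among them those of Scg2, Npy4r and Il21r and those of 5 uncharacterized Gm genes, 2 of the windows belonging to Gm32257. Scg2 encodes secretogranin II of neuroendocrine vesicles, Npy4r a receptor for pancreatic polypeptide and Il21r the receptor for interleukin-21. The windows of 4 genes are shown to let the sequence under such a peak be read, each with the 250 bases upstream of the start, 5′ to 3′ on the strand of the gene, and with the bases inside the member in capitals. Those of Scg2 (minus strand, chr1:79440027-79440276), Npy4r (minus strand, chr14:34152420-34152669), Gm41167 (plus strand, chr14:61037687-61037936) and Il21r (plus strand, chr7:125603179-125603428) read as follows.
Scg2: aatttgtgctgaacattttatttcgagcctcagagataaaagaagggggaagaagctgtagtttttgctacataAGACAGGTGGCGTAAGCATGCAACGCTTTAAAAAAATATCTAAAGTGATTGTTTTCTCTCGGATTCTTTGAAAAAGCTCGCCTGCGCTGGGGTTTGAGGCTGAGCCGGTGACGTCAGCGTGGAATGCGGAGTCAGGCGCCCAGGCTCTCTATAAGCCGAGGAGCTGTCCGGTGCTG
Npy4r: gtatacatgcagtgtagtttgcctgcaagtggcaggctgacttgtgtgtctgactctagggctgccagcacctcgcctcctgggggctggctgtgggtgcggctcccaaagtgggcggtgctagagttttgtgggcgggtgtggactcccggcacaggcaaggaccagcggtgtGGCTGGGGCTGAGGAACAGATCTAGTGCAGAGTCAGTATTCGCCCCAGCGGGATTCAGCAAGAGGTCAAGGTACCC
Gm41167: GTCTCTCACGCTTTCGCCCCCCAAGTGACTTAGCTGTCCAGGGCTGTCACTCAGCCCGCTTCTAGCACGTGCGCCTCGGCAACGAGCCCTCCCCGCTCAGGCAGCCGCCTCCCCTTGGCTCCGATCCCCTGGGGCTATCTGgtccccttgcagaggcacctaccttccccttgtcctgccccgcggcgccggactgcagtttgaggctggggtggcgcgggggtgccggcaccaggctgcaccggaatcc
Il21r: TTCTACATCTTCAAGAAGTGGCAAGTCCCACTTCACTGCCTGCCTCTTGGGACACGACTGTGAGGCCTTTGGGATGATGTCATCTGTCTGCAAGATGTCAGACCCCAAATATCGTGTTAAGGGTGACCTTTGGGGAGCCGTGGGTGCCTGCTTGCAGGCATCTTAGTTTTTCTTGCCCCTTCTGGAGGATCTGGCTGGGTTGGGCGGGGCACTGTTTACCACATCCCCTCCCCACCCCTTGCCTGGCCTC

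The members covered 176, 76, 141 and 250 of these 250 bases, respectively. CG content was counted over the whole window of 300 bases, of which the 50 after the start are not shown. The windows differed widely in it, with 16 CG dinucleotides in that of Scg2, 10 in that of Npy4r, 22 in that of Gm41167 and 7 in that of Il21r. Over the 9 windows the median was 9 CG dinucleotides (range 4 to 22), against 24 in the 3413 windows under other PSME3 peaks and 7 in all 32851 windows. Windows with a pooled H3K4me3 peak and no PSME3 peak, 9951 in number, had a median of 21. The G and C content was 51.7% at the median of the 9 windows, 64.3% under other PSME3 peaks and 52.7% over the whole table. The few promoters under members were thus nearer to the whole table than to promoters with PSME3 and the mark, with too few windows for a test. The motif TGACGTCA, the palindromic cAMP response element, was looked for on both strands after the sequences had been seen. It occurred in the windows of Scg2 and Gm41208, or 2 of 9, in 3.08% of the windows under other PSME3 peaks and in 1.79% of all windows. The peaks over these windows had fold enrichments of 3.35 at Scg2, 2.67 at Npy4r, 2.65 at Gm41167 and 2.94 at Il21r, against a median of 2.93 over the other PSME3 peaks of the pooled list. None of these 4 was found in a PSME3 replicate list. At Gm41167, which lies beside Tnfrsf19, a receptor of the tumor necrosis factor family, H3K4me3 was listed in cycling replicate 2 (fold enrichment 2.56) and in frozen native day 2 cells (3.01). No single H3K4me3 list had a peak at the other 3 sites.

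Most members lay within or between genes and far from gene ends. Of the 371, 52 lay within 1 kb of a gene boundary (the start or the end of a gene), 183 inside a gene and farther in, and 136 outside genes. These were 14.0% (exact 95% interval 10.6 to 18.0%), 49.3% (44.1 to 54.5%) and 36.7% (31.7 to 41.8%). Over all pooled PSME3 peaks, the shares were 59.3% near a boundary, 27.6% inside and 13.1% outside. Within 1 kb of a gene start were 21 of 361 members, or 5.82%, against 53.9% of all PSME3 peaks. Over the peaks whose nearest protein-coding gene was in the promoter table they were 19 of 282 members, or 6.74% (exact 95% interval 4.10 to 10.3%), against 67.5% of the others.

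The same measure was taken in the PSME3 replicate lists, whose peaks were split by the pooled H3K4me3 list. In replicates 1, 2 and 3, 41 of 147, 22 of 53 and 45 of 100 peaks without H3K4me3 shared a base with a member. Most of these replicate peaks were thus at other sites than the members. Near a gene boundary lay 10.2%, 13.2% and 13.0% of the peaks without H3K4me3 in replicates 1, 2 and 3, and 59.8%, 73.7% and 70.4% of the peaks with it. The classes did not overlap in any library. The means were 12.1% ± 1.68 and 68.0% ± 7.25 (SD, n = 3), a difference of -55.8 ± 5.60 percentage points (SD, n = 3). In a two-sided exact permutation over sign flips, p was 0.25, and 3 replicates can give none smaller. Outside genes lay 40.8%, 34.0% and 36.0% of the peaks without the mark against 14.3%, 7.33% and 8.32% of those with it. The difference was 26.9 ± 0.657 percentage points (SD, n = 3; exact sign-flip permutation test, p = 0.25), so its size varied little between libraries. Inside genes the difference was 28.9 ± 5.41 percentage points, again in the same direction in 3 of 3 replicates (exact sign-flip permutation test, p = 0.25). At gene starts alone, on the chromosomes of the promoter table, the shares were 4.58% ± 0.834 and 63.5% ± 6.11 (SD, n = 3), and 5.83% ± 1.17 and 73.9% ± 7.20 (SD, n = 3) where the nearest protein-coding gene was in that table. With 3 replicates none of these differences could pass a threshold of 0.05, although each exceeded the spread between libraries. The peaks were split by a mark that is laid down around gene starts, so the split itself favoured this direction. These differences are therefore a description and not independent evidence on position. The same holds for the shares of members at promoters and gene boundaries in the pooled list.

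**Figure D1:**
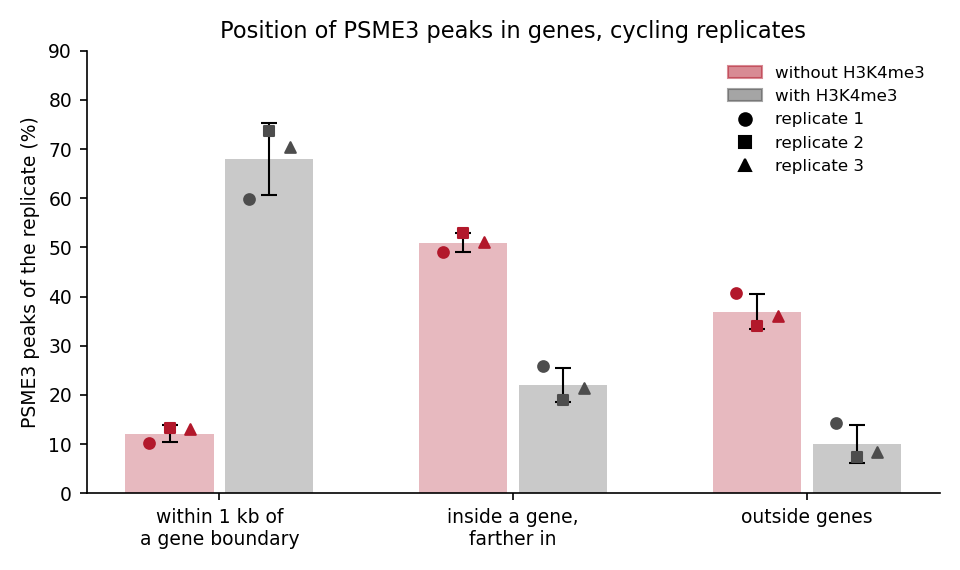
Percent of the PSME3 peaks of each cycling replicate (points, shaped by replicate) in each gene position, for peaks without (red) and with (grey) a pooled H3K4me3 peak; bars are means and error bars SD over 3 replicates. Near a gene boundary the peaks without the mark sit between 10.2% and 13.2% and those with it between 59.8% and 73.7%.

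Members inside genes lay in long genes, the longest gene under each having a median length of 122383 bp (n = 183) against 69740 bp for the other PSME3 peaks inside genes (n = 1419). Members outside genes were a median of 15685 bp from the nearest gene (n = 136), against 7839 bp for the others (n = 623 with a gene on their sequence). Random positions in the genome were not measured, so whether these lengths and distances are particular to the members was not tested. Protein-coding genes were overlapped by 179 members (48.2%, exact 95% interval 43.1 to 53.5%), against 74.7% of all PSME3 peaks. A long noncoding RNA gene and no protein-coding gene was overlapped by 41 members (11.1%, 8.05 to 14.7%), against 5.94% of all PSME3 peaks. The members rarely came together, with 7 pairs of neighbours within 10 kb. The nearest PSME3 peak with pooled H3K4me3 was a median of 108104 bp from a member (n = 368). In all, 6 genes held 2 members within their bounds or 1 kb around them, namely Ano1, Col27a1, Gm11958, Gm2048, Gm51498 and Slc22a22, and no gene held 3. Ano1 encodes a calcium-activated chloride channel and Col27a1 a fibrillar collagen.

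Genes of muscle and the proteasome were looked up as lists. In or within 1 kb of the 12 myogenic factor genes lay 0 members and 5 other PSME3 peaks (0.0919% of the others), and for 22 sarcomere and fusion genes the counts were 0 and 1 (0.0184%). The 57 proteasome genes had 0 members and 11 other peaks (0.202%). At such shares a list of 371 peaks would hold fewer than 1, so the counts of 0 say nothing particular about the members. In addition, the 416 zinc finger genes of the Zfp series had 1 member, at Zfp827 (0.270%), and 90 others (1.65%). Of 19 adhesion and motility genes, Tln2, which encodes the integrin-binding protein talin 2, held 1 member (0.270%), and 19 other peaks (0.349%) lay at genes of this list. The Tln2 peak had a fold enrichment of 3.13, lay 707 bp from a pooled H3K4me3 peak and was found in none of the 14 single-library lists. Near small RNA genes both the members and the other peaks were rare. Within 1 kb of tRNA genes lay 2 members, both mitochondrial (0.539%, against 0.478% of the others), and of snRNA genes 1 (0.270% against 0.368%). For miRNA genes the shares were 0.270% (1 member) and 0.809%, and for snoRNA genes 0 members and 0.239%. The miRNA was Mir7b, within A230051N06Rik on chromosome 17. The list named for ribosomal RNA, of which 4 genes were in the gene table, had 2 members, at Rn18s-rs5 with AY036118 and at Lars2, and 0 other peaks. Lars2 is not a ribosomal RNA gene, and the list was chosen with earlier results of these data known, so this count is no independent evidence.

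The share of members was listed by chromosome. The highest autosomal shares were on chromosome 15, with 38 of 365 PSME3 peaks (10.4%, exact 95% interval 7.47 to 14.0%), and on chromosome 14, with 20 of 202 (9.90%, 6.15 to 14.9%). The lowest autosomal shares were on chromosome 7, with 9 of 307 (2.93%, 1.35 to 5.49%), and chromosome 17, with 10 of 293 (3.41%, 1.65 to 6.19%). The intervals of the autosomes other than 7, 15 and 17 included the share over all peaks, and since these extremes were picked from 19 autosomes no difference between chromosomes is read from them. In the PSME3 replicates, 11 of 71, 8 of 58 and 8 of 227 peaks on chromosome 15 lacked pooled H3K4me3, which in replicate 3 was close to that replicate's share over all chromosomes, 3.26%. On chromosome 14 they were 3 of 38, 1 of 19 and 4 of 89, which in replicates 1 and 2 was below the shares over all chromosomes. On chromosome 7 they were 8 of 79, 1 of 32 and 4 of 163, and on chromosome 17 they were 9 of 70, 5 of 49 and 4 of 161. In replicates 1 and 2 the shares on chromosome 17 were thus not below those over all chromosomes, 12.3% and 6.83%, unlike in the pooled list. Chromosome X held 0 of 25, which allows a share of up to 13.7%. In replicates 1 and 3, 1 of 5 and 1 of 16 peaks on chromosome X lacked pooled H3K4me3, and replicate 2 had no peak there. The single PSME3 peak on chromosome Y and both mitochondrial peaks were members. In the replicates, mitochondrial or unplaced sequence held 0%, 0% and 5% of the peaks without the mark and 0%, 0% and 0.0673% of those with it, a difference of 1.64 ± 2.85 percentage points (SD, n = 3; exact sign-flip permutation test, p = 1) that rested on replicate 3.

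**Figure D2:**
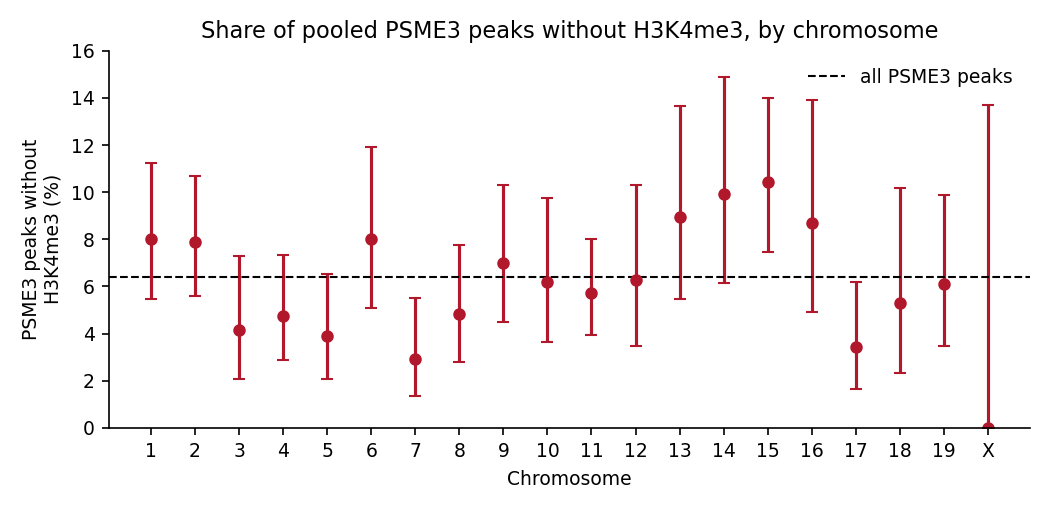
Percent of pooled cycling PSME3 peaks without H3K4me3 on each chromosome, with exact 95% intervals, which cover counting error only; the dashed line is the share over all chromosomes, 6.38%. Of the autosomes, chromosome 15 has the highest share (10.4%) and chromosome 7 the lowest (2.93%).

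The members were narrower than the other peaks and similar in fold enrichment. Their median width was 303 bp (quartiles 241.5 and 426, range 206 to 5830), against 443 bp (303 and 675) for the other PSME3 peaks. The median fold enrichment was 2.87 (quartiles 2.76 and 3.01) against 2.93 (2.75 and 3.19), and the median -log10 q was 1.50 against 2.10. At a q-value of at most 0.01 stood 85 members, or 22.9%, against 52.3% of all PSME3 peaks. The 5 widest were the site at Rn18s-rs5 (5830 bp), a member at Gm51498 (1469 bp), 1 outside genes on chromosome 9 (1273 bp), 1 outside genes on chromosome 4 (1265 bp) and the member at Gm52481 on chromosome Y (1181 bp). Peaks without the mark were also the narrower class in each replicate, with median widths of 192, 233 and 284.5 bp in replicates 1, 2 and 3 against 249, 299 and 399.5 bp, a description since width belongs to the calls that chose the peaks.

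Support in the individual PSME3 replicates was thin for most members and strong for a few. None of the 3 replicate lists held 293 members (79.0%, exact 95% interval 74.5 to 83.0%), against 45.8% of all PSME3 peaks. Replicate 1 held 41 members (11.1%, against 15.4% of all PSME3 peaks), replicate 2 held 22 (5.93%, against 12.1% of all PSME3 peaks) and replicate 3 held 47 (12.7%, against 45.0% of all PSME3 peaks). In each library the share of members was below that of all peaks, and the gap was widest in replicate 3. At least 2 replicate lists held 20 members, or 5.39%, against 14.4% of all PSME3 peaks, and all 3 held 12, or 3.23%, against 3.92% of all PSME3 peaks. The share in all 3 lists was thus near the background, whereas that in none was far above it. Without replicate 1, or without replicate 3, the number in at least 2 lists was 12. Members in no replicate list had a median fold enrichment of 2.85 in the pooled list, those in 1 list 2.99, those in 2 lists 3.74 and those in 3 lists 5.48.

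**Figure D3:**
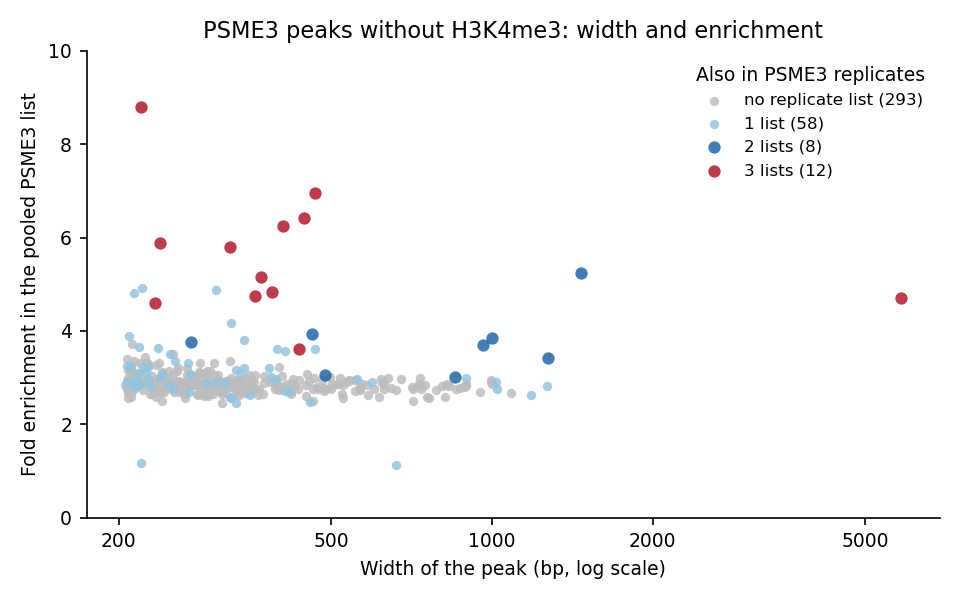
Width (log axis) and fold enrichment of the 371 members in the pooled PSME3 list, colored by how many of the 3 PSME3 replicate lists also held the site. Members in no replicate list crowd around a fold enrichment of 2.85, and the 12 in all 3 lists lie between 3.62 and 8.79.

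The 8 members in exactly 2 replicate lists were all found in replicates 1 and 3. They were wide, with a median of 907 bp, and included sites inside Cdk18, a cyclin-dependent kinase gene, Celsr1, which encodes a cadherin of planar cell polarity, and Fto, which encodes an RNA demethylase. At Fto the fold enrichment was 6.09 in replicate 1 and 3.65 in replicate 3. Both members at Gm51498 were of this kind, the wider with fold enrichments of 8.02 and 4.38. The other 3 lay outside genes on chromosomes 2, 9 and 12. Only 1 of the 8, that on chromosome 2 (157913080 to 157913540), was also listed for PSME3 at day 2, in frozen native cells (fold enrichment 5.12), and these 8 were singled out after their values were seen.

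Read from the replicates, 147 of 1200, 53 of 776 and 100 of 3070 PSME3 peaks lacked pooled H3K4me3, or 12.3%, 6.83% and 3.26%, a mean of 7.45% ± 4.53 (SD, n = 3). Against the H3K4me3 list of the same replicate number, as a replicate block, they were 262, 35 and 161, or 21.8%, 4.51% and 5.24%. Replicate 1 had the highest share by either list, and the order of replicates 2 and 3 turned with the list. Of the peaks without pooled H3K4me3, 41, 22 and 45 shared a base with a member, whereas 104, 31 and 52 met no pooled PSME3 peak. Many of the peaks without the mark in a single replicate were therefore absent from the pooled list.

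Distances to the mark varied over a wide range. The median distance from a member to the nearest pooled H3K4me3 peak was 30577 bp (n = 369), with 13 members within 200 bp, 15 within 1 kb, 72 within 10 kb and 62 at 100 kb or more. The 2 mitochondrial members had no H3K4me3 peak on their chromosome. The members just inside the rule were 9 bp away at Gm31108 with Gm38921, 15 bp at Gfod1, 15 bp at Cd276, 27 bp outside genes on chromosome 15 and 55 bp at Lamc1, a laminin gene. The PSME3 peaks just outside it shared 4 bp with an H3K4me3 peak on chromosome 13, 11 bp at Akap6, 22 bp at Neb, 24 bp at Galnt9 and 35 bp at Fam83b. Peaks on either side of the rule were alike in strength, with fold enrichments of 2.69 to 2.92 inside and 2.60 to 2.98 outside.

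Some members did have an H3K4me3 peak in a single cycling library. The 3 cycling H3K4me3 replicates went into the pooled list that the rule used, so low shares among members are a description. H3K4me3 replicate 1 held a peak at 2 members (0.539%, against 83.8% of all PSME3 peaks), replicate 2 at 100 (27.0%, against 93.9% of all PSME3 peaks) and replicate 3 at 8 (2.16%, against 88.6% of all PSME3 peaks). In all, 106 members, or 28.6% (exact 95% interval 24.0 to 33.5%), had the mark in at least 1 of them, against 94.7% of all PSME3 peaks. In 96 of the 106 it was replicate 2 alone, and without that replicate the count was 10. No member had the mark in all 3, and the 4 with it in 2 replicates lay at Rn18s-rs5, Nfatc2, Zfp827 and Nmnat3. Nfatc2 encodes a calcineurin-dependent transcription factor and Nmnat3 an enzyme of NAD synthesis. The 100 members with a peak in replicate 2 lay at gene positions similar to the rest, with 14 near a boundary, 53 inside and 33 outside genes, against 38, 130 and 103 of the 271 without one.

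At day 2 the members still lacked the mark for the most part. An H3K4me3 peak lay at 10 members in fresh native cells (2.70%, exact 95% interval 1.30 to 4.90%), against 69.5% of all PSME3 peaks. It lay at 21 in fresh crosslinked cells (5.66%, 3.54 to 8.52%), against 79.1% of all PSME3 peaks. In frozen native cells it lay at 9 (2.43%, 1.12 to 4.55%), against 76.6% of all PSME3 peaks, and in frozen crosslinked cells at 17 (4.58%, 2.69 to 6.91%), against 80.5% of all PSME3 peaks. In any of the 4 preparations it lay at 32 members, or 8.63%, against 83.1% of all PSME3 peaks, and in all 4 at 3, or 0.809%, against 69.1% of all PSME3 peaks. The day 2 lists were not used by the rule, but cycling and day 2 libraries came from the same cell line, and no test was made with 1 library per preparation.

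PSME3 peaks were scarce at day 2, and members made up much of the little that was left in fresh cells. Members shared a base with 13 of the 23 PSME3 peaks of fresh native cells and with 10 of the 18 of fresh crosslinked cells. After freezing the counts were 15 of 186 (native) and 16 of 77 (crosslinked). As shares of the members these were 3.50% (exact 95% interval 1.88 to 5.92%), 2.70% (1.30 to 4.90%), 4.04% (2.28 to 6.58%) and 4.31% (2.48 to 6.91%), against 0.241%, 0.206%, 3.11% and 1.27% of all pooled PSME3 peaks. In frozen native cells the share was thus close to the background and its interval included it. The PSME3 peaks with cycling H3K4me3 had 1, 2, 166 and 58 of their number found again in the same order of preparations. Any day 2 list held 17 members, or 4.58%, against 3.36% of all PSME3 peaks.

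**Figure D4:**
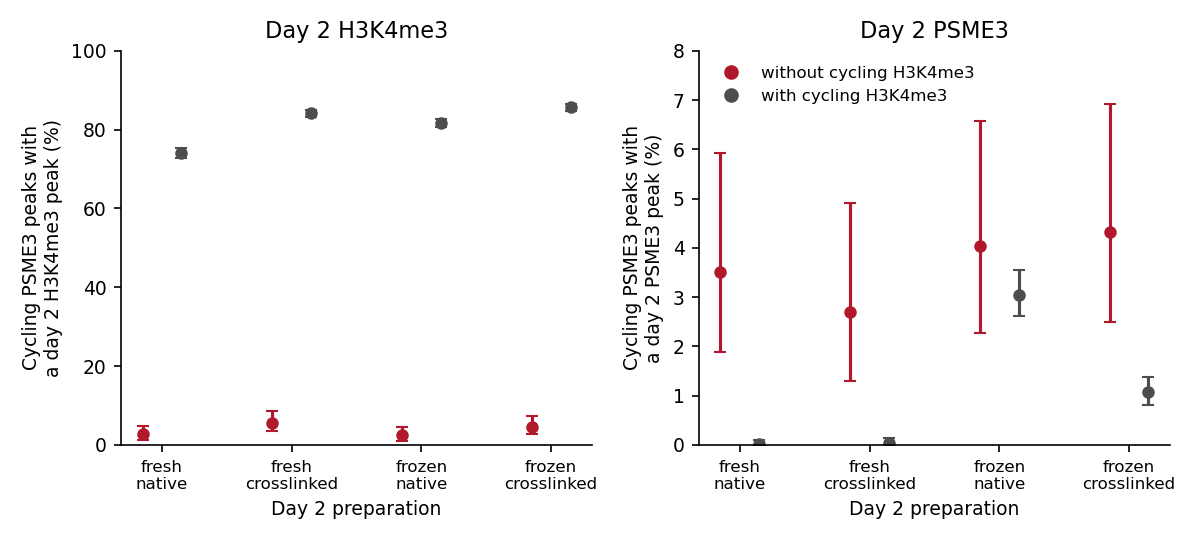
Percent of cycling PSME3 peaks that shared a base with an H3K4me3 peak (left) or a PSME3 peak (right) in each of 4 day 2 preparations, for the 371 peaks without (red) and the 5441 with (grey) cycling H3K4me3; bars are exact 95% intervals, which cover counting error only. On the left the members sit between 2.43% and 5.66%, and on the right between 2.70% and 4.31%, with the axes to different scales.

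A set of 13 members had a PSME3 peak in 3 or 4 day 2 preparations, or 3.50%, against 0.241% of all PSME3 peaks, since 1 other peak, at Prr14 and Fbrs, did so too. In all 4 preparations were 10, or 2.70%, against 0.189% of all PSME3 peaks. The 13 sites lay in Gm36876, Gphn, Zc3h7a, Cmss1 with Filip1l, Gm46595, Gm30821, Camk1d and Cdk8, at Rn18s-rs5 with AY036118, at Lars2, outside genes on chromosome 3 (5860364 to 5860798) and at 2 places of the mitochondrial genome. The 11 nuclear sites were also in all 3 cycling PSME3 lists. Inside genes lay 8 of the 13, near a boundary 4 and outside genes 1. Their median fold enrichment in the pooled list was 4.84, against 2.87 for the other 358 members.

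The widest of them lay at Rn18s-rs5, which is named for its likeness to the 18S ribosomal RNA gene, on chromosome 17 (39843001 to 39848830). Its fold enrichment was 6.11, 5.25 and 7.55 in PSME3 replicates 1, 2 and 3. In the day 2 preparations it was 4.27 (fresh and native), 3.20 (fresh and crosslinked), 11.2 (frozen and native) and 4.96 (frozen and crosslinked). An H3K4me3 peak was listed there in cycling replicates 2 (1.46) and 3 (1.24) and in the 4 day 2 preparations (2.07, 1.97, 1.99 and 1.83 in the same order). The site was thus called with either antibody.

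Lars2 encodes the mitochondrial leucyl-tRNA synthetase, and the member (chromosome 9, 123461803 to 123462171) lay near a boundary of the gene. PSME3 had fold enrichments of 5.89, 5.26 and 9.57 in the cycling replicates and of 5.10, 3.73, 13.8 and 6.09 at day 2, in the order of preparations above. H3K4me3 was listed at 1.95 in cycling replicate 2 and at 2.39, 2.63, 2.45 and 2.50 at day 2. The third site with H3K4me3 in all 4 day 2 lists lay in Gm46595 on chromosome 17, where its fold enrichments were 3.41, 2.98, 3.07 and 2.94. PSME3 there had 6.06, 6.80 and 7.35 in the cycling replicates and 5.53, 9.05 and 7.17 at day 2, with no peak in fresh crosslinked cells.

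Contrasting sites stood at the ends of the set. The site in Gm30821, on chromosome 18, had the highest pooled fold enrichment of all members, 8.79, with 11.0, 10.1 and 15.8 in the cycling replicates, and carried no H3K4me3 peak in any of 7 single lists. At day 2 PSME3 had 3.65 in fresh native cells and, after freezing, 15.4 in native and 7.24 in crosslinked cells. The mitochondrial members, 1 over COX1 (5775 to 6436) and 1 outside genes, 81 bp from the tRNA gene TrnP (15504 to 15723), had the lowest, 1.13 and 1.17. They were listed for PSME3 in cycling replicate 3 (1.21 and 1.22) and in all 4 day 2 preparations (1.23 to 1.65 and 1.26 to 1.68). Mitochondrial DNA is not wrapped in histones, and H3K4me3 was listed at both in the fresh preparations alone (1.20 and 1.29, 1.24 and 1.26). Every fresh H3K4me3 list had 4 mitochondrial peaks, and the frozen and cycling H3K4me3 lists had 0.

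The other sites fell between these. In Gphn, the gene of the synaptic scaffold gephyrin, PSME3 had 6.53, 5.24 and 5.51 in the cycling replicates and 5.34, 5.46, 10.2 and 5.92 at day 2. The mark was listed at 2.84 and 4.25, in the fresh preparations. In Cdk8, which encodes a kinase of the Mediator complex, PSME3 ranged from 5.17 to 10.4 in the cycling replicates and from 3.54 to 7.45 at day 2, and the mark was listed in fresh crosslinked cells alone (2.37). In Camk1d, a calmodulin-dependent kinase gene, PSME3 reached 16.9 in frozen native cells, and the mark was listed in 3 preparations at 2.32 to 3.47. In Gm36876, PSME3 ranged from 4.00 to 12.4 over the 7 lists and H3K4me3 from 1.41 to 2.74 over 4 lists. PSME3 ranged from 4.00 to 11.1 in Zc3h7a, from 3.59 to 13.1 in Cmss1 with Filip1l and from 2.34 to 10.9 at the site outside genes on chromosome 3. H3K4me3 was listed at these in 3, 1 and 3 day 2 preparations and in no cycling replicate.

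For H3K4me3, 12 of the 13 sites had a day 2 peak, so that these few made up 12 of the 32 members with the mark at day 2. The fold enrichments of the H3K4me3 peaks over them had medians of 2.07, 2.32, 2.19 and 2.36 in the 4 preparations, in the order used above, against 5.86, 4.99, 12.8 and 5.84 over the whole lists. Their median widths were 307, 254, 255.5 and 329.5 bp, against 1483, 1348, 1844 and 1456 bp over the lists. The H3K4me3 peaks listed at these sites were thus narrower and lower than the median of their lists. PSME3 chose the set, so its median fold enrichments there (4.27, 3.37, 11.1 and 5.92) are a description. Whether the signal at sites called with either antibody depends on the antibody was not tested, since IgG libraries were not analysed here.

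**Figure D5:**
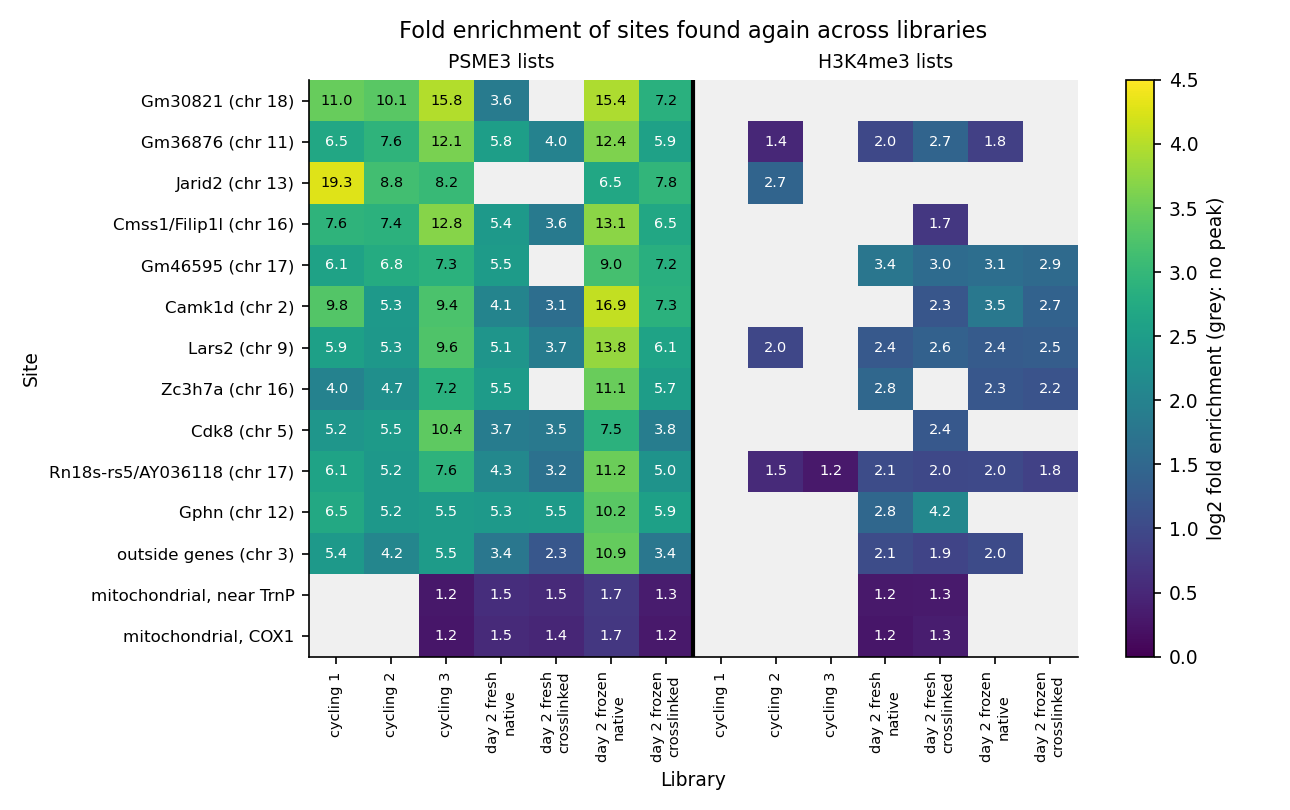
Fold enrichment (numbers; color on a log2 scale) at the 13 members with PSME3 in 3 or 4 day 2 preparations and at Jarid2, in the 7 PSME3 and the 7 H3K4me3 single-library lists; grey marks a list with no peak there. The nuclear sites reach 19.3 in PSME3 lists and 4.25 in H3K4me3 lists, and the mitochondrial sites reach 1.68.

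Jarid2, which encodes a partner of Polycomb repressive complex 2, held the 12th member found in all 3 PSME3 replicates (chromosome 13, 44869567 to 44870011). Its fold enrichments of 19.3, 8.82 and 8.22 in replicates 1, 2 and 3 were high, and at day 2 it was listed after freezing (6.52 native, 7.79 crosslinked) but not in fresh cells. The mark was listed there in cycling replicate 2 alone (2.73). Besides Jarid2 and the site on chromosome 2, the members outside the set with PSME3 at day 2 were those in Myo3a (4.89) and at Gm52481 on chromosome Y (4.43), both in frozen crosslinked cells.

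Outside the set of 13, 20 members had H3K4me3 at day 2, and 17 of them in a single preparation. The other 3 lay in Ssh2, a phosphatase gene of actin turnover (2 preparations, 2.76 and 3.46), in Abtb2 (3 preparations, 2.67 to 3.00) and at Gm52481 (3 preparations, 2.69 to 3.06). All of these were named after their values were seen. The sites in Ssh2 and Gm52481 lay 118 and 1178 bp from a pooled cycling H3K4me3 peak and that in Abtb2 7141 bp.

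Over both stages, 249 members had H3K4me3 in none of the 7 single lists (67.1%, against 4.96% of all PSME3 peaks), and the other 122 had it in at least 1. The 3 cycling lists among the 7 went into the pooled list that the rule used, so these shares are a description. Of the 249, 214 were in no PSME3 replicate list either (57.7% of the members, against 4.16% of all PSME3 peaks), and 35 were in at least 1 (9.43%, against 0.791% of all PSME3 peaks). At least 2 PSME3 replicates and none of the H3K4me3 lists went with 7 members (1.89%, against 0.138% of all PSME3 peaks), those in Gm30821 and Fto, both at Gm51498 and the 3 outside genes on chromosomes 2, 9 and 12. All but that in Gm30821 were found in replicates 1 and 3 alone, so without replicate 1, or without replicate 3, the count was 1.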

How the data were processed

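PSME3 and H3K4me3 peak lists of cycling and day 2 C2C12 cells were used, 14 of single libraries and 2 pooled over the cycling replicates. Per the labels, the authors trimmed reads with Trim Galore, aligned them to mm10 with Bowtie2 and called peaks with MACS2; versions, options and the control are not given in the sources used here. For each peak the authors deposited a score, a fold enrichment (a ratio to background) and p- and q-values as -log10. Here, positions were compared in Python 3.11.15 (scipy 1.17.1, pandas 2.3.3, numpy 2.4.6), and 1 shared base counted as overlap. The gene table held 49993 entries of GRCm38.p6, the assembly that mm10 names, without strand or exons; gene starts came from a RefSeq promoter table that is not complete and was used without chromosome 18 and the mitochondrial genome. Overlap functions were tested on simulated lists.

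Members and lists were chosen with earlier results of these data known. The peaks named were members in all 3 PSME3 replicates or in 3 or 4 day 2 PSME3 lists, those with H3K4me3 in all 4 day 2 lists, mitochondrial members, the 5 widest, the 5 nearest to either side of the rule, and those at genes of fixed lists; others are said to be chosen later. Differences over replicates were tested by exact sign-flip permutation. Intervals at 95% cover counting error only. Over 19 autosomes, log2 shares of peaks, as deviations from the antibody's mean, correlated between PSME3 and H3K4me3 libraries of the same replicate number (Pearson r = 0.540, 0.555 and 0.275), so the numbers were taken to pair the libraries, although replicates 1 and 3 were not told apart (crossed r = 0.522 and 0.266). Settings varied were a q-value limit of 0.01 for either antibody, coverage of at least 50% of the peak, H3K4me3 within 1 kb, a union of H3K4me3 lists, other gene definitions, and each replicate left out.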

Additional observations from a re-analysis of the deposited data

How the results depend on the processing

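The near-boundary difference kept its direction under all 14 alternatives run for it (-68.1 to -51.7 percentage points), and the outside-gene difference did so too (21.4 to 36.0). Each alternative still split the peaks by H3K4me3, a mark of promoters. The lowest value came from gene starts alone at peaks whose nearest protein-coding gene was in the promoter table, an alternative chosen after seeing the data. With the H3K4me3 list of the same replicate number, as the replicate block, they were -60.3 ± 8.63 and 28.7 ± 2.30 (exact sign-flip permutation test, p = 0.25), and the block changed no other call. Without the block, the exact permutation test of 3 against 3 values gave p = 0.1 for both, the smallest it allows. Leaving out each replicate gave -58.9 to -53.5 near a boundary, 26.6 to 27.2 outside genes, 0 to 2.47 for mitochondrial or unplaced sequence, and 5.04 to 9.54% of replicate peaks without H3K4me3. It gave 12 to 20 members in at least 2 PSME3 replicates and 10 to 105 with H3K4me3 in a cycling replicate. At a PSME3 q-value of at most 0.01 there were 85 members, 28 with H3K4me3 in a cycling replicate and 17 with it at day 2. The number with H3K4me3 in a cycling replicate was 167 of 441 members when at least 50% of the PSME3 peak had to be covered and 210 of 507 when pooled H3K4me3 peaks needed a q-value of at most 0.01. With the union of H3K4me3 lists, 16 of 265 had it at day 2. Without the 13 members in 3 or 4 day 2 PSME3 lists, an alternative chosen after seeing the data, 9 of the other 358 were in at least 2 PSME3 replicates, 20 had H3K4me3 and 4 PSME3 at day 2, and 0 were in all 4 day 2 PSME3 lists. The depth of the libraries is unknown, so absence from a list sets no limit on binding.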
